A study of Mus musculus with 39 samples.

Results

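The genes described here were 9 osteoclast genes, chosen by their lower level after tretinoin in these same tumours: Oscar, Calcr, Nfatc1, Dcstamp, Ocstamp, Atp6v0d2, Acp5, Ctsk and Rufy4. The members were taken as the rows of the count table that carry these symbols, and 7 of the 9 were found among 39676 genes. Nfatc1 and Dcstamp were not analysed here. Because tretinoin chose the members, every difference between tumours with and without tretinoin is given below for these genes as a description. The counts of members called in those contrasts follow from the choice and support nothing.

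Osteoclasts are giant cells that form when macrophage precursors fuse, under the signals Csf1 and Rankl, and that dissolve bone by pumping acid and secreting proteases beneath a sealed border. Their programme is switched on by Nfatc1 together with Fos, Mitf and Spi1, and it is restrained by factors such as Irf8 and Bcl6. Macrophages in tumours and in inflamed tissue can take on part of this programme without bone, and multinucleated osteoclast-like giant cells are known from several tumour types.

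The tumours were subcutaneous AB1-HA tumours of female and male BALB/c mice aged 8 to 10 weeks, AB1-HA being a mouse mesothelioma line that carries influenza haemagglutinin. Each was resected on day 9 after inoculation. The groups were PBS (n = 10), Tretinoin (n = 9; all-trans retinoic acid, 5 mg/kg per dose, 5 daily doses from day 4, as the labels give it), ICT (n = 10; immune checkpoint therapy with antibodies to CTLA-4 and PD-L1, 100 µg of each from day 7) and Tretinoin+ICT (n = 10). The study's text also names other tretinoin doses for tumours of this kind, so the dose is uncertain. In its methods the vehicle of tretinoin was PBS with DMSO, whereas the labels name the control as PBS. The opposite flank of each mouse in the Tretinoin+ICT group kept a tumour whose outcome gave the label Responder (n = 6) or Non-responder (n = 4), so the response was read in another tumour than the one sequenced. Total counts ranged from 14033046 to 37951183 per tumour with a median of 18548168. The first digit of each tumour's name, called the name series here, took 8 values of which each treatment held its own 2, so that name series and treatment cannot be told apart between treatments.

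No protein or cell was counted in these data, and the label of giant cells was checked only through marker genes. Of the 7 markers of bone and osteoblasts found, several were at or near 0. Ibsp, a bone matrix sialoprotein, never exceeded 1 count, Sost, made by osteocytes, was at 0 in 38 of 39 tumours, and Bglap, the osteocalcin gene, never exceeded 7 counts. Alpl ran from 5 to 71 counts and Dmp1 from 18 to 94, while Runx2, a transcription factor that other cells also use, ran from 1037 to 2720. In bulk RNA, fewer cells of a type and less RNA per cell cannot be told apart.

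Promoter sequence was available for 5 of the 7 members from RefSeq on GRCm38.p6, and the 3 members with a single start in that source are shown. Their mRNAs, like those of the other members, varied together across tumours, as described below. Each sequence is the 250 bases before the start, written 5′ to 3′ on the gene's strand. Capitals mark matches on either strand to core letters of factors of the osteoclast programme: GGAAAA (NFAT), TGANTCA (AP-1, which contains Fos), CATGTG or CACGTG (E-boxes of the MITF family) and GAGGAA (PU.1, the product of Spi1). The first is Ctsk at chr3:95498960-95499209 (+ strand), the second Rufy4 at chr1:74125291-74125540 (+ strand) and the third Oscar at chr7:3616158-3616407 (− strand).
Ctsk: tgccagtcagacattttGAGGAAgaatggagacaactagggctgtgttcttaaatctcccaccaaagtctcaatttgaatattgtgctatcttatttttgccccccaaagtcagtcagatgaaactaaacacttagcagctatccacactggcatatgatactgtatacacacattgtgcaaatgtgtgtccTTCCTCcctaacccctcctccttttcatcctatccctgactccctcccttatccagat
Rufy4: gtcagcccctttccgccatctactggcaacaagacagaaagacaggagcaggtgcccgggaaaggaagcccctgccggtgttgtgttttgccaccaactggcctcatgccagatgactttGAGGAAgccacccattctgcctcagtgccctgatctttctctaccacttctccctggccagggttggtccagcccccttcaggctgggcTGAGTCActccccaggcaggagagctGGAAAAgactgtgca
Oscar: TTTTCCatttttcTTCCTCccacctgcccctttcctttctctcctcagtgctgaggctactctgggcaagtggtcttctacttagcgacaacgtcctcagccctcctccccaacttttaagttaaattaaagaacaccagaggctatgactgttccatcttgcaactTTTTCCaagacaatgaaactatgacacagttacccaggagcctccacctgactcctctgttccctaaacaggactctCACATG

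All 3 windows held the PU.1 letters, which were found in 23.3% of 32851 promoters of the same length. The NFAT letters were in the Rufy4 and Oscar windows and in 20.4% of all promoters. The AP-1 letters were in the Rufy4 window, 41 bases before the start, and in 6.75% of all promoters. Oscar alone of the 3 held CATGTG, found in 12.3% of all promoters, and none held CACGTG, found in 6.02%. Over all 8 windows of the 5 members with sequence, 3 held the PU.1 letters and 3 the NFAT letters. AP-1 letters were in 1 of the 8, CATGTG in 2 and CACGTG in 0. The letters AGGTCA, of which retinoic acid receptors bind a pair, were searched in the same way and were in none of the 8 windows of the 5 members, against 4607 of the 32851 promoters. A match is a run of letters and not a measured binding site.

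The members spanned more than 3 orders of magnitude in level. Per kilobase of exon in PBS tumours, the mean normalised count (scaled by DESeq2 size factors) was 3280.0 ± 1559 for Ctsk, 1512 ± 893 for Acp5, 319 ± 189 for Atp6v0d2, 41.4 ± 23.5 for Rufy4, 34.2 ± 19.98 for Ocstamp, 9.48 ± 5.598 for Oscar and 2.76 ± 1.65 for Calcr (SD, n = 10 for each). The ranges over PBS tumours of neighbours in this order overlapped, apart from Atp6v0d2, whose lowest tumour was at 136.7 per kilobase, and Rufy4, whose highest was at 95.1. Levels in the following paragraphs are normalised counts, not divided by length.

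**Figure D1:**
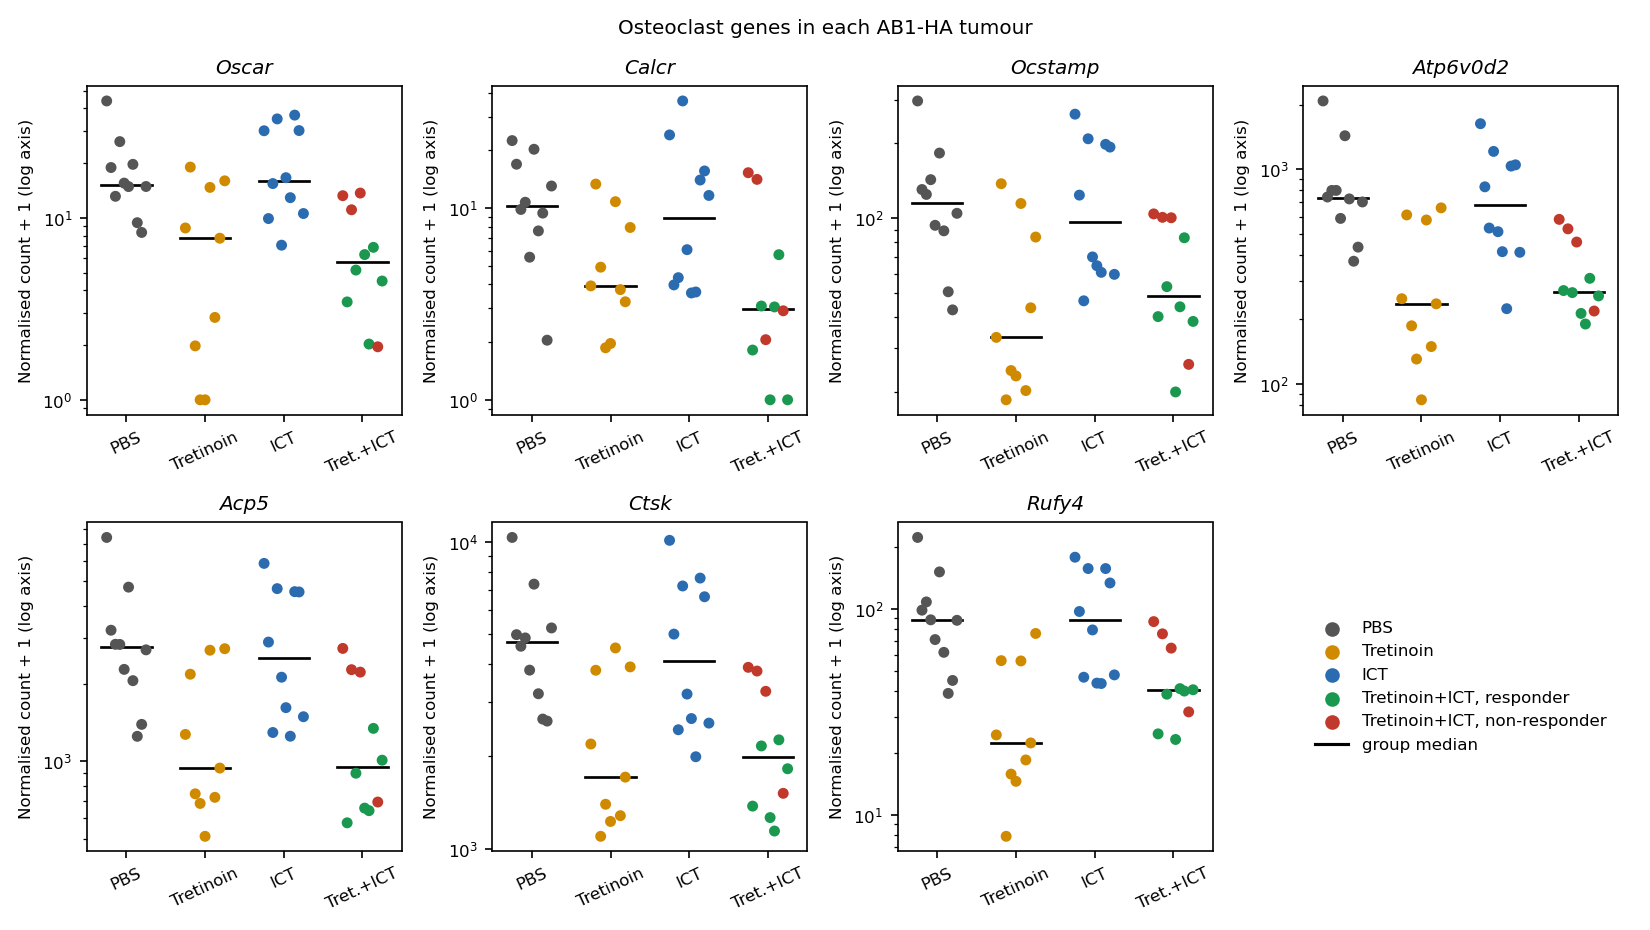
Normalised count + 1 of the 7 members in each of the 39 tumours on log axes, by treatment group, with the group median as a line and the Tretinoin+ICT tumours coloured by response. In every panel the group medians with tretinoin lie below those without it, and for Acp5, Ctsk, Atp6v0d2, Rufy4, Ocstamp and Oscar 3 of the 4 non-responder tumours lie above all 6 responder tumours. How many of all genes share the pattern by response was not computed.

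Of the receptors, Oscar is a collagen receptor that signals through Fcer1g to promote osteoclast formation (chromosome 7, 3609813 to 3616157, − strand, GENCODE M21 on GRCm38). Its lowest, median and highest normalised counts were 7.32, 14.2 and 43.002 with PBS, 0, 6.74 and 18.04 with tretinoin, 6.08, 15.1 and 35.8 with ICT, and 0.957, 4.73 and 12.7 with Tretinoin+ICT. The groups overlapped, although 7 of the 10 Tretinoin+ICT tumours lay below all 10 ICT tumours. Calcr, the receptor through which calcitonin restrains osteoclasts (chromosome 6, 3685680 to 3764714, − strand), was near the detection limit, with medians of 9.28, 2.93, 7.86 and 1.98 in the order PBS, Tretinoin, ICT and Tretinoin+ICT and no more than 35.2 in any tumour.

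Ocstamp, a membrane protein needed for fusion of precursors (chromosome 2, 165393760 to 165400405, − strand), ranged from 41.8 to 295 with PBS (median 114), from 17.6 to 137 with tretinoin (32.2), from 45.6 to 261 with ICT (96.0) and from 19.04 to 103 with Tretinoin+ICT (47.6). Here 5 of 9 Tretinoin tumours lay below every PBS tumour, and 5 of 10 Tretinoin+ICT tumours lay below every ICT tumour. Atp6v0d2 encodes the d2 subunit of the proton pump, which also takes part in fusion (chromosome 4, 19876841 to 19922605, − strand). It ranged from 371 to 2077 with PBS (median 733), from 83.1 to 659 with tretinoin (235), from 223 to 1627 with ICT (678) and from 189 to 582 with Tretinoin+ICT (268). All 9 Tretinoin tumours were under the PBS median and 6 were under the lowest PBS tumour.

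Acp5, the tartrate-resistant acid phosphatase by which osteoclasts are stained (chromosome 9, 22126727 to 22135711, − strand), ranged from 1247 to 7393 with PBS (median 2772), from 510 to 2733 with tretinoin (939), from 1249 to 5861 with ICT (2508) and from 575 to 2740 with Tretinoin+ICT (952). Ctsk, cathepsin K, the protease that digests bone collagen (chromosome 3, 95499256 to 95509362, + strand), ranged from 2606 to 10351 with PBS (median 4720), from 1096 to 4514 with tretinoin (1710), from 1993 to 10129 with ICT (4100) and from 1141 to 3902 with Tretinoin+ICT (1992). Rufy4, a protein of lysosome and autophagosome traffic (chromosome 1, 74125541 to 74148223, + strand), ranged from 37.9 to 222 with PBS (median 87.3), from 6.86 to 75.01 with tretinoin (21.3), from 42.4 to 177 with ICT (87.1) and from 22.2 to 85.8 with Tretinoin+ICT (39.2). For each of these 3 genes all 9 Tretinoin tumours lay below the PBS median.

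Tumours of the Tretinoin group were uneven. Tumours 32, 71 and 75 held Acp5 counts of 2175, 2696 and 2733, within the PBS range, whereas the other 6 tumours lay between 510 and 1269, and only 1 of those 6 reached the lowest PBS tumour. The same 3 tumours were the highest of the group for Ctsk (3818, 4514 and 3915), for Atp6v0d2 (611, 578 and 659) and for the other members. They came from both name series of the treatment. Among the PBS tumours, tumour 11 was the highest for all 7 members, and among the ICT tumours, tumour 61 was the highest for 5 of 7. Within a group the highest tumour exceeded the lowest by between 3.08-fold and 20.6-fold, for members without a tumour at 0.

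The fitted differences with tretinoin, which chose the genes, are given here with and without ICT. Tretinoin minus PBS gave log2 fold changes of -1.63 ± 0.41 (SE) for Rufy4, -1.44 ± 0.42 for Atp6v0d2, -1.31 ± 0.51 for Oscar, -1.20 ± 0.44 for Ocstamp, -1.15 ± 0.39 for Acp5 and -1.08 ± 0.33 for Ctsk, and -1.20 ± 0.44 for Calcr without the low-count filter. Tretinoin+ICT minus ICT gave -1.26 ± 0.31 for Atp6v0d2, -1.22 ± 0.37 for Acp5, -1.14 ± 0.32 for Ctsk, -1.10 ± 0.32 for Rufy4 and -1.10 ± 0.38 for Ocstamp. Oscar and Calcr did not pass the filter there, and without it were at -1.74 ± 0.41 and -1.52 ± 0.67. Whether the difference with tretinoin depended on ICT was not tested. For all 7 members the means of the 4 name series with tretinoin lay below those of the 4 without it, in the range of 867 to 1772 against 2427 to 3714 for Acp5. Nothing is read from this count, since it uses the values that chose the members. The share of all genes separated in this way was not computed.

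A gene was called where edgeR's quasi-likelihood test gave a p below 0.05 after Benjamini-Hochberg adjustment and the log2 fold change reached 1 in size. By this rule 4 of the 6 members that passed the filter were called lower in Tretinoin against PBS, beside 0.132% of all 14340 genes. The 4 were Rufy4, Atp6v0d2, Acp5 and Ctsk, while Oscar and Ocstamp, at -1.31 and -1.20, were not called. Nothing is read from the counts in this contrast or in Tretinoin+ICT against ICT, since the fall with tretinoin chose the members. The count was 2 without PBS tumour 11 or 51 or Tretinoin tumour 33, 34, 35 or 72, and 6 without Tretinoin tumour 32. In Tretinoin+ICT against ICT, 1 of 5 was called by edgeR, beside 0.0282% of 14202 genes, and 5 of 7 by DESeq2, beside 0.0803%. The edgeR count rested on single tumours. It was 0 without Tretinoin+ICT tumour 22, 24, 42 or 45 or ICT tumour 61, 64, 83 or 84, 2 without Tretinoin+ICT tumour 23 or ICT tumour 65, 82 or 85, and 4 without Tretinoin+ICT tumour 21 or ICT tumour 63.

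**Figure D2:**
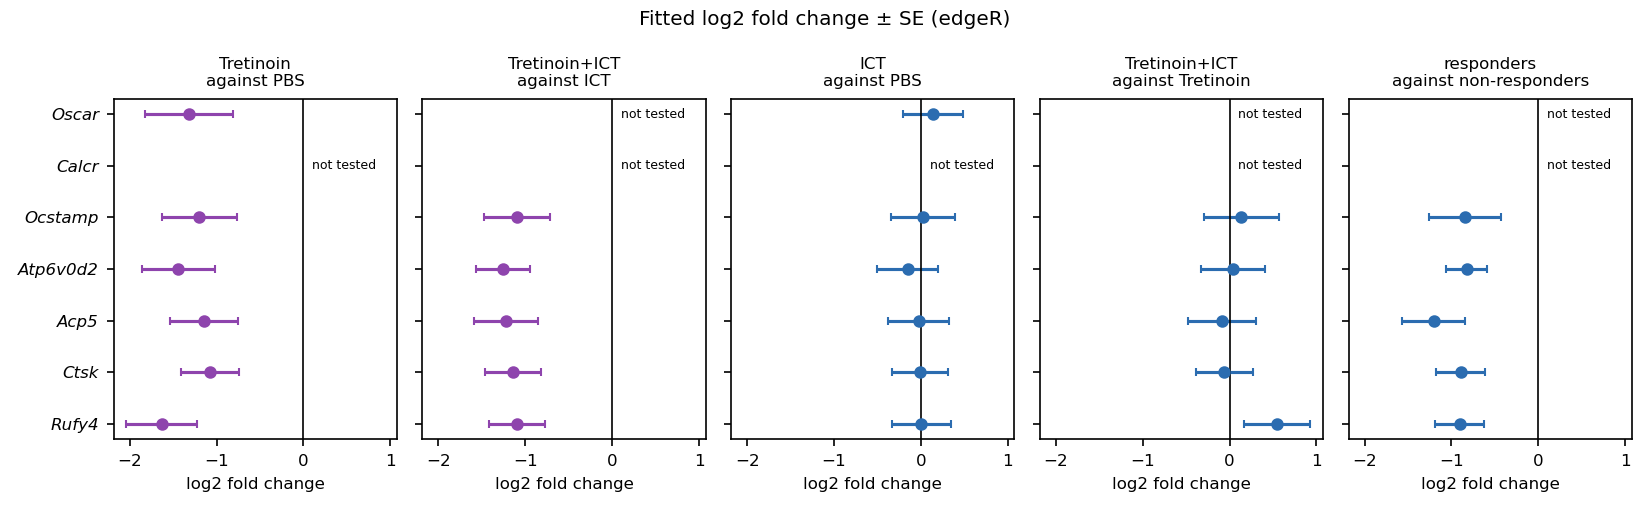
Log2 fold change (point) and standard error (bar) of each member in the 5 comparisons, fitted by edgeR. Purple marks the contrasts with tretinoin, which chose the genes, with values from -1.63 to -1.08, and blue marks the comparisons that were tested. Members removed by the low-count filter have no point and are marked as not tested.

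No change of the members with ICT alone was detectable. The comparison of ICT with PBS shares its PBS tumours with the contrast that chose the genes. Log2 fold changes ranged from -0.15 ± 0.35 for Atp6v0d2 to 0.14 ± 0.34 for Oscar, with Ctsk at -0.01 ± 0.32 (adjusted p from 0.784 to 0.993, edgeR). The count past an adjusted p of 0.05 was 0 of 6 by edgeR, 0 at an unadjusted p below 0.05 and 0 of 7 by DESeq2, against 7.15% of 14155 genes lower and 14.1% higher. For each tested member apart from Oscar, 5 of 10 ICT tumours lay above the PBS median, and for Oscar 6 did. With standard errors of 0.32 to 0.37, changes of that size on the log2 scale in either direction would not have been seen.

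No change was detectable either where ICT was added to tretinoin, in the comparison of Tretinoin+ICT with Tretinoin, which shares its Tretinoin tumours with the choosing contrast. Acp5, Ctsk, Atp6v0d2 and Ocstamp lay between -0.09 ± 0.40 and 0.14 ± 0.43. Rufy4 was at 0.55 ± 0.38 (adjusted p = 0.293, edgeR), with all 10 Tretinoin+ICT tumours above the Tretinoin median. Here 0 of 5 members passed by edgeR, 0 at an unadjusted p below 0.05 and 0 of 7 by DESeq2, against 9.01% of 14393 genes lower and 12.3% higher.

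Within the Tretinoin+ICT group the members were lower in responders than in non-responders by fitted value, a difference that the choice of genes had not used, and whether it passed depended on the tool. Acp5 was 852.6 ± 290.9 in responders and 1978 ± 889 in non-responders (SD, n = 6 and 4), and Ctsk was 1671 ± 479.7 and 3118 ± 1105. Atp6v0d2 was 250.04 ± 43.3 in responders and 445 ± 161 in non-responders, and Rufy4 was 33.6 ± 8.33 and 63.7 ± 23.8. Ocstamp was 45.6 ± 21.1 and 81.9 ± 38.0, Oscar 3.72 ± 1.81 and 9.00 ± 5.48, and Calcr 1.61 ± 1.78 and 7.60 ± 7.08. In non-responder tumours 21, 23, 25 and 44, Ctsk was 3902, 3795, 3259 and 1514, and Rufy4 was 85.8, 74.7, 63.5 and 30.6. For all 7 members each of the 6 responder tumours lay below the non-responder median, but the groups overlapped, since the non-responder tumour 44 lay within or below the range of the responders for every member, and for Calcr 2 of the 4 non-responders did. How many of all genes share this pattern was not computed. Because the members varied together across tumours, as described below, these are not 7 separate results.

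Log2 fold changes of responders minus non-responders were -1.21 ± 0.36 for Acp5 (p = 0.00795, adjusted p = 0.103, edgeR), -0.91 ± 0.28 for Rufy4 (adjusted p = 0.104), -0.89 ± 0.28 for Ctsk (adjusted p = 0.109), -0.84 ± 0.41 for Ocstamp (adjusted p = 0.252) and -0.83 ± 0.23 for Atp6v0d2 (adjusted p = 0.0942). Without the low-count filter Calcr was at -2.36 ± 0.86 (edgeR adjusted p = 0.202) and Oscar at -1.29 ± 0.56 (adjusted p = 0.296). None of the 5 members passed after adjustment, nor did any of the 14604 genes tested (0%), the smallest adjusted p being 0.0684, while 3302 genes had an unadjusted p below 0.05. At an unadjusted p below 0.05, 4 of the 5 members were lower in responders, against 9.24% of all genes. With DESeq2, 4 of 5 members had an adjusted p below 0.05 and were lower, against 4.19% of 12818 genes: Atp6v0d2 (0.0128), Ctsk (0.0152), Acp5 (0.0301) and Rufy4 (0.0309), while Ocstamp was at 0.158. Of these, Acp5 alone also reached the fold limit, at -1.22.

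Name series and individual tumours bear on this comparison. In series 2, Acp5 was 575 and 897 in the 2 responders and 2216, 2265 and 2740 in the 3 non-responders. For 6 of 7 members there, Calcr being the exception, all responders lay below all non-responders. Nothing is read from this count, since the share of all genes separated in this way was not computed and the members varied together. In series 4 the single non-responder, tumour 44, held 693 for Acp5 within the range of the 4 responders, 641 to 1339, so that this series shows no separation. With the name series as a block the log2 fold changes lay between -0.98 ± 0.49 for Acp5 and -0.47 ± 0.51 for Ocstamp (adjusted p from 0.223 to 0.637, edgeR). Without tumour 44 they lay between -1.49 for Acp5 and -1.05 for Atp6v0d2 (adjusted p from 0.151 to 0.167, edgeR). Without responder tumour 43, Acp5 reached an adjusted p of 0.0430 and Atp6v0d2 of 0.0383 (edgeR) while 205 genes were called in all.

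Markers of other cells are given here for the same tumours. The summed level of 9 macrophage markers (10 listed) ran from 82180 to 98300 normalised counts in responders and from 66380 to 77940 in non-responders, without overlap and in the opposite direction to the members. Taken singly, each of the 9 markers overlapped between responders and non-responders. How often sums of other genes separate in this way was not computed. Their median log2 fold change was 0.32, and 0 of 9 had an edgeR adjusted p below 0.05. The sum of 6 T cell markers ran from 862 to 1863 and from 739.5 to 1103, and that of 7 dendritic cell markers from 2681 to 5808 and from 2105 to 2976. The sum of 7 bone markers overlapped, from 1190 to 1442 and from 1285 to 1613. The sum of 5 neutrophil markers ran from 2398 to 4796 and from 1838 to 2947. The part of these cells in the difference of the members was not tested.

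The members varied together from tumour to tumour within treatments, which the choice of genes had not used. After removal of treatment group means, Pearson's r over the 39 tumours was between 0.642 (Oscar and Calcr) and 0.977 (Acp5 and Ctsk) for the 21 pairs, with a median of 0.831, and Spearman's rho ran from 0.612 to 0.958. Every pair had an adjusted permutation p of 1e-05 for r, the smallest that 100000 resamples within treatment groups can give, and adjusted p for rho was at most 8e-05. The permutation tests only against no correlation, and the share of other gene pairs that would pass was not computed. Among Ocstamp, Atp6v0d2, Acp5, Ctsk and Rufy4 the 10 values of r lay between 0.901 and 0.977. Without the 2 tumours farthest from the median of each pair, r ran from 0.602 to 0.975. Within single treatments it ran from 0.623 to 0.992 with PBS, from 0.747 to 0.982 with tretinoin, from 0.689 to 0.992 with ICT and from 0.492 to 0.970 with Tretinoin+ICT. The lowest value in any single name series of 4 or 5 tumours was -0.24, for Oscar with Rufy4. The deviations also contain the difference between responders and non-responders.

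**Figure D3:**
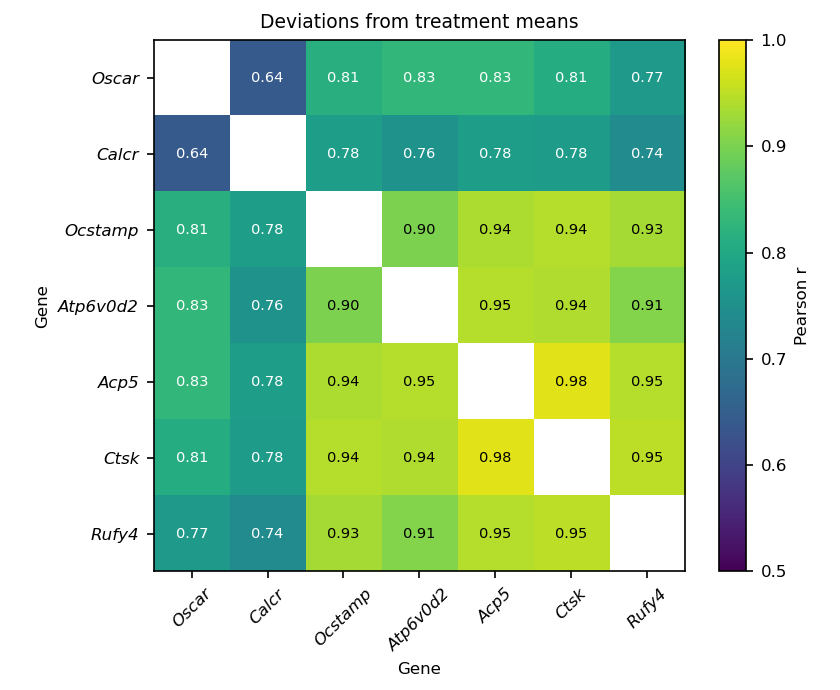
Pearson r between members over 39 tumours, computed on log2 CPM after removal of treatment group means. Values run from 0.64 for Oscar with Calcr to 0.98 for Acp5 with Ctsk, and the pairs without Oscar and Calcr are all at 0.90 or above.

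Several of the genes that followed the members most closely are known from osteoclasts. Of 12118 genes, the 10 with the highest r to the mean deviation of Ocstamp, Atp6v0d2, Acp5, Ctsk and Rufy4 were Slc9b2, a sodium and proton exchanger of osteoclasts (r = 0.963), Cyp2s1, a cytochrome P450 (0.961), Mmp9, the gelatinase secreted by osteoclasts and neutrophils (0.931), Kbtbd11 (0.901), Abcb4, a phospholipid transporter (0.887), Adcy3, an adenylyl cyclase (0.882), Serpinb8, a serpin (0.873), Plxna4, a semaphorin receptor (0.868), Tnfrsf11a, the receptor of Rankl (0.855), and Tm4sf19, a tetraspan membrane protein (0.846). These values are a description over 39 tumours without a test. Slc9b2 and Cyp2s1 had log2 differences close to those of the members, at -1.45 and -1.28 for Tretinoin minus PBS. For Tretinoin+ICT minus ICT these were -1.49 and -1.02. For responders minus non-responders they were -1.59 and -1.22 (adjusted p = 0.109 and 0.11, edgeR). The ranking by r used deviations that contain the difference by response, so this last likeness follows in part from the ranking. Mmp9 and Tnfrsf11a followed the members from tumour to tumour with smaller differences, at -0.45 and -0.38 for Tretinoin minus PBS. Siglec15, an osteoclast receptor outside these 10, had r = 0.839. Most of the other osteoclast genes listed below did not follow the members. Grouped by role, their median r was negative in every role, from -0.361 for inhibitors of osteoclast formation to -0.0381 for transcription factors. Of the signals and receptors, 5 of 8 had a negative r, and of the acid secretion genes 7 of 12, down to -0.594 for Atp6v0a1. For all genes the share with a negative r was not computed.

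Genes of the osteoclast programme outside the members were found both lower and higher with tretinoin. Of a list of 46 other osteoclast genes, 39 were found. In Tretinoin against PBS, 5 of 38 tested were lower at an edgeR adjusted p below 0.05 and 4 were higher, beside 8.95% lower and 11.5% higher among all genes. The lower genes were Fos (log2 fold change -1.10), a subunit of AP-1, Tnfrsf11a (-0.38, adjusted p = 0.0019), Csf1 (-0.21), Cd9 (-0.20) and Atp6v1a (-0.23), and of these Fos alone reached the fold limit. The higher genes were Irf8 (0.89, adjusted p = 0.0047), an inhibitor of osteoclast formation, together with Tcirg1 (0.57), the a3 subunit of the proton pump, Trem2 (0.36) and Plekhm1 (0.27). Irf8 also ran opposite to the members within treatments (r = -0.353), but this was not particular to inhibitors. Among the osteoclast transcription factors, Tfec was at -0.520, Mitf at -0.069, Spi1 at -0.038, Fos at 0.385 and Prdm1 at 0.412. Macrophage markers had a median r of -0.415.

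Of the paired subunits of the proton pump, Atp6v0d1, the d1 subunit found in all cells, was 1457 ± 96.6 with PBS and 1437 ± 180 with tretinoin (log2 fold change -0.02, edgeR adjusted p = 0.869), whereas Atp6v0d2 was 866 ± 513 and 320 ± 229 (SD, n = 10 and 9). Per kilobase of exon Atp6v0d1 stood at 812.5 ± 53.9 with PBS, above the 319 ± 189 of Atp6v0d2. Carbonic anhydrase Car2, which supplies protons, was at -0.28 with tretinoin (adjusted p = 0.217), Itgb3, the integrin subunit of the sealing zone, at 0.08 (0.546) and Csf1r at 0.28 (0.0632). Mmp9, at -0.45, had an adjusted p of 0.195. Tnfsf11 (Rankl) and Tnfrsf11b (osteoprotegerin) were not analysed here.

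With ICT more than 1 in 2 genes of the list were higher. Against PBS, 21 of 39 were higher and 1, Itgav (-0.29), was lower at an edgeR adjusted p below 0.05, beside the 14.1% and 7.15% of all genes given above. The higher genes included Tfec (1.37, adjusted p = 0.0007), a transcription factor of macrophages and osteoclasts, Irf8 (0.96), Adam8 (0.96), Ctss (0.96), Fcer1g (0.82), Snx10 (0.70), Tyrobp (0.68), Car2 (0.65), Spi1 (0.59), Sirpa (0.54) and Csf1r (0.47), many of which macrophages express in general. All 9 macrophage markers and all 4 tested neutrophil markers were also higher with ICT, and the part of these cells in the list's change was not tested. In Tretinoin+ICT against Tretinoin, 21 of 38 genes were higher and 1, Itgav (-0.37), was lower, beside the 12.3% and 9.01% of all genes, with Tfec at 1.60, Car2 at 1.26 and Adam8 at 1.12. In Tretinoin+ICT against ICT, where 1.57% of all genes were higher and 0.422% lower, the median log2 fold change of the list was 0.07. Between responders and non-responders no gene of the list had an edgeR adjusted p below 0.05, as none of all genes did. The median log2 fold change of responders minus non-responders was above 0 in every role. It ran from 0.07 for other proteases to 0.48 for inhibitors of osteoclast formation, whereas the members were lower in responders. Single genes lay on both sides of 0, with Tfec at 1.24 and Tnfrsf11a at -0.34.

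**Figure D4:**
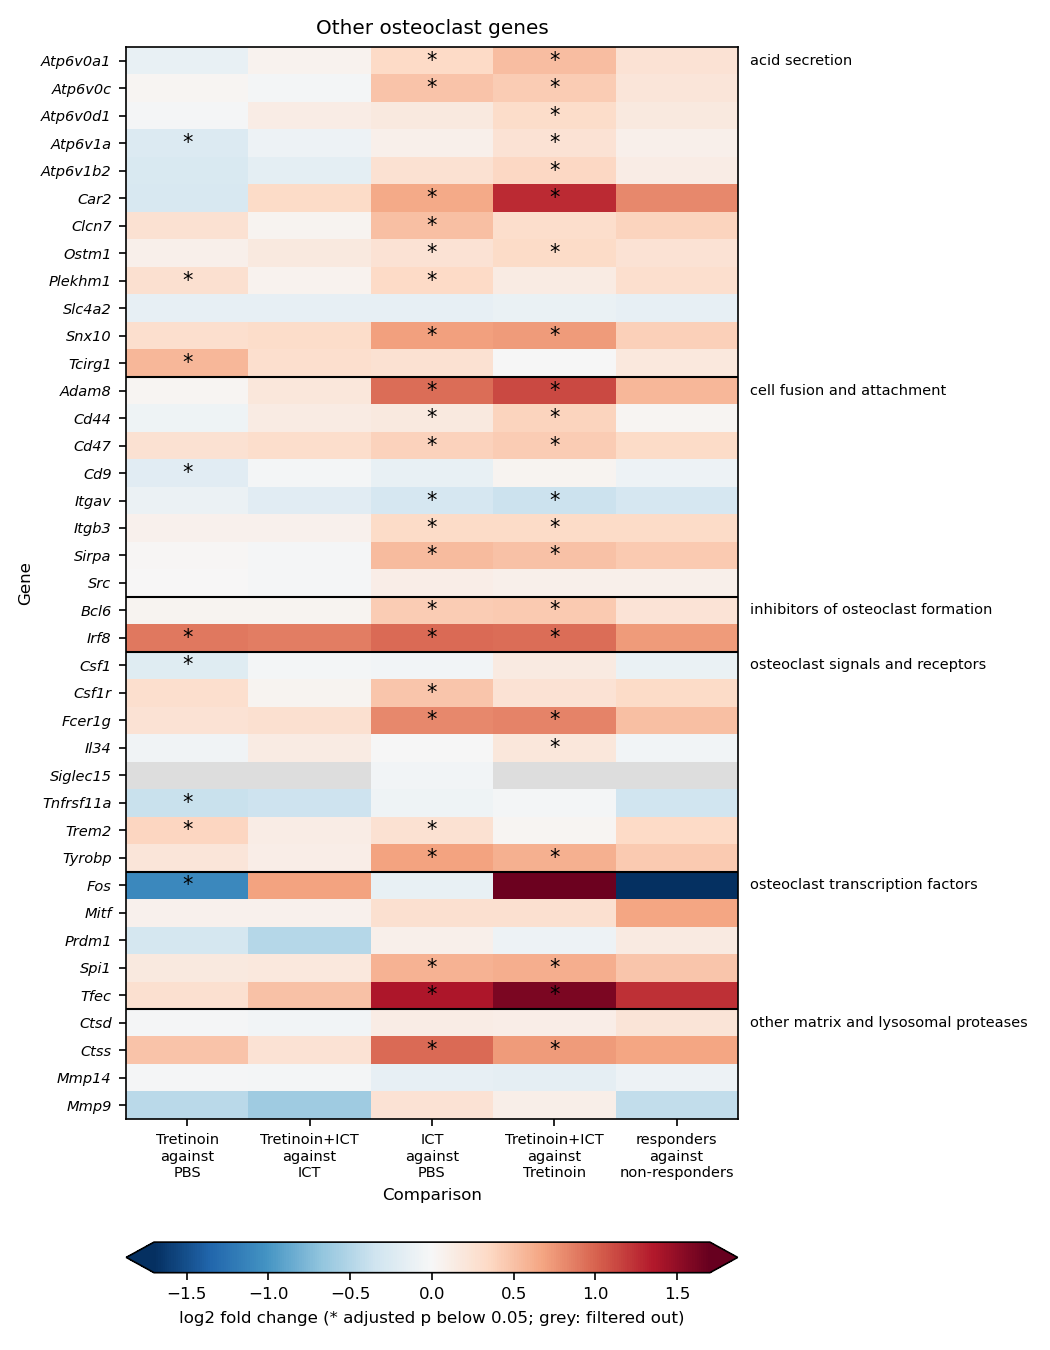
Log2 fold change by edgeR of 39 other osteoclast genes (rows, by role) in the 5 comparisons (columns), with a star where the adjusted p was below 0.05, grey where the low-count filter removed the gene, and the colour scale ending at 1.7 in each direction. Fos lies beyond it at -2.41 between responders and non-responders, where 1 non-responder tumour held 8165 normalised counts against a median of 784 in that group. The columns of ICT against PBS and of Tretinoin+ICT against Tretinoin each hold 21 starred higher genes, whereas the column of Tretinoin against PBS holds 4 higher and 5 lower.

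Macrophage markers were higher or not distinguishable with tretinoin. With tretinoin 5 of 9 tested macrophage markers were higher than with PBS at an edgeR adjusted p below 0.05, beside 11.5% of all genes. The median log2 fold change of the list was 0.45, and their summed level ran from 48710 to 102000 normalised counts against 44330 to 68960 with PBS. Within treatments, 8 of 9 of these markers had a negative r with the members, from -0.668 for Mrc1. How many of all genes had a negative r was not computed. The 6 fibroblast markers had r between -0.41 and 0.454.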

How the data were processed

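RNA of 39 whole tumours was measured by bulk RNA-seq with 100 base single-end reads. Per the labels and the study's methods, the authors demultiplexed reads with bcl2fastq (2.20.0.422), mapped them with HISAT2 (2.0.4) to a mouse genome named mm11, tallied gene-level reads with SummariseOverlaps and deposited raw counts, which are whole numbers with no scaling. The strand setting and the handling of multi-mapped reads were not given in the sources used here, so overlapping and antisense genes may share reads. Of the identifiers, 92.55% matched GENCODE M21 (GRCm38), the source of coordinates and exon lengths.

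The members and the gene lists were chosen with earlier results of these data known. Each pair of groups was fitted alone on the whole table with edgeR 4.0.16 (TMM, filterByExpr, robust quasi-likelihood test, Benjamini-Hochberg adjustment) in R 4.3.3. Standard errors were derived from the F statistic and the fold change of each gene. Normalised counts were scaled by DESeq2 1.42.0 size factors over all tumours, and log2 CPM had a prior count of 2. Fits were tested on simulated data: of 200 genes changed by 1.5 on the log2 scale, 184 were called in ICT against PBS (14155 genes) and 181 in responders against non-responders (14604 genes), with 0 false calls in each. Genes were simulated independently of each other, and smaller changes, such as those of the members between responders and non-responders, were not simulated. These counts therefore do not give the power to detect the members' differences. Named genes were all members, list genes with an adjusted p below 0.05, 9 further osteoclast genes whatever their values, and the 10 genes most like the members with a mean log2 CPM of at least 1. Alternatives were DESeq2, edgeR scaled by its size factors, leaving off the low-count filter, 1 fit of all tumours, no fold minimum, the name series or the second digit of the tumour name as a block, other scales for correlations, and leaving out each tumour. Of the gene lists, 1 item is not reported here. The labels do not name the mouse of each tumour, so p-values measure the spread between the tumours as deposited.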

Additional observations from a re-analysis of the deposited data

Results flagged for a closer look

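In 42 combinations of member and group, the highest or lowest tumour was compared with its nearest neighbour by Dixon's criterion, which flags about 1 in 20 groups by chance, and 2 stood apart. Oscar in PBS tumour 11 was at 43.002 normalised counts, with the next tumour at 25.3. Ocstamp in the non-responder tumour 44 was at 24.9, with the nearest of the other 3 non-responders at 99.5.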

How the results depend on the processing

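The number of members called in Tretinoin against PBS was 4. It was 2 without the low-count filter and from 2 to 6 when each tumour was left out. In Tretinoin+ICT against ICT it was 1, 5 with DESeq2, 3 with all 39 tumours in 1 fit, and from 0 to 4 when each tumour was left out. In responders against non-responders it was 0, 1 with DESeq2 (Acp5 at -1.22), and from 0 to 1 when each tumour was left out. Apart from a replicate block, no other alternative of these counts differed by more than 1.5 times, and in ICT against PBS and Tretinoin+ICT against Tretinoin the count was 0 in every alternative. Leaving out single tumours turned the sign of differences near 0. In ICT against PBS the log2 fold change ran from -0.18 to 0.22 for Acp5, from -0.19 to 0.18 for Ctsk, from -0.34 to 0.10 for Atp6v0d2, from -0.15 to 0.26 for Ocstamp, from -0.0014 to 0.40 for Oscar and from -0.13 to 0.23 for Rufy4. In Tretinoin+ICT against Tretinoin it ran from -0.28 to 0.10 for Acp5, from -0.19 to 0.12 for Ctsk and from -0.093 to 0.24 for Atp6v0d2. The cause of these changes was not tested. Over 39 tumours all 21 pairs of members had r above 0.5 with variance stabilized values and with deviations from name series means, and likewise without the 2 most extreme tumours. Oscar and Calcr have few counts, which limits every statement on them. The second digit of tumour names recurs across name series. Between tumours of different treatments with the same digit, the median r of deviations was 0.0201 over 114 pairs, from -0.581 to 0.652. Over the 456 pairs with another digit it was 2.42e-05, from -0.673 to 0.623. Whether the digit marks a pairing of tumours was not tested. With that digit as a replicate block, chosen after seeing the data, the members called were 5, 0, 0, 0 and 0 in Tretinoin against PBS, ICT against PBS, Tretinoin+ICT against ICT, Tretinoin+ICT against Tretinoin and responders against non-responders, and Acp5 in ICT against PBS was at 0.014.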

Other observations

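Markers of dendritic cells and T cells ran opposite to the members within treatments. All 7 dendritic cell markers had a negative r with the mean deviation of the members over 39 tumours, from -0.784 for Ccr7, a receptor of migrating dendritic cells, to -0.33 for Xcr1, with a median of -0.535. All 6 T cell markers did so too, from -0.644 for Cd3d to -0.363 for Cd8a. Neutrophil markers were on either side of 0, from -0.37 to 0.185. These values are a description without a test. The share of all genes with a negative r was not computed. The deviations also contain the difference between responders and non-responders.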
